A study of Mus musculus with 6 samples.

Results

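The 39 protein-coding genes of the mouse Hox clusters were chosen by name, as those whose GENCODE M21 symbol is Hoxa, Hoxb, Hoxc or Hoxd followed by a number, out of 55401 gene identifiers in the count table. All 39 were in the table, values are given for 38 of them, and 30 of these passed the filter on low counts that left 17778 genes for testing. The cells were mouse embryonic stem (ES) cells, pluripotent cells grown from the early embryo, and their polyadenylated RNA was sequenced. The 3 libraries labelled KO came from ES cells given doxycycline, and the 3 libraries labelled as expressing 3XHA-Taf13, an epitope-tagged form of the gene, came from ES cells with no treatment. Both were cultured for 7 days, and each library came from its own Petri dish. The drug and the KO label always occurred together, so their effects cannot be told apart. The labels give neither the strain nor the number of clones, nor how doxycycline acts on the gene. The series asks what happens to messenger RNA when cells lose TAF13, part of TFIID, a complex that helps place RNA polymerase II at promoters.

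Hox genes encode homeodomain transcription factors that give cells their identity along the head-to-tail axis of the embryo. They lie in clusters in which the order of the genes follows the order of their expression: those of low number, at the 3′ end of a cluster, are switched on first and furthest towards the head, and those of high number, at the 5′ end, last and furthest towards the tail. Genes of the same number in different clusters descend from one ancestor and form a paralogue group. In ES cells the clusters are known to be held nearly silent by Polycomb complexes, and retinoic acid activates their 3′ genes first.

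Before the Hox results, the libraries were compared as a whole. Taf13 itself had 422, 634 and 699 counts in KO replicates 1, 2 and 3, against 244, 445 and 447 in expressing replicates 1, 2 and 3. The log2 fold change was 0.40 (SE 0.147; adjusted p = 0.0578, edgeR), so the targeted gene was not lower under the KO label. The counts do not separate tagged from chromosomal Taf13, so the directions given here rest on the labels. Total counts per library ran from 31219328 to 50328010. Expressing replicate 1 stood apart from the other 2 expressing libraries (chi-square per degree of freedom 37.9 and 30.8, against at most 6.2 for other pairs within a group). Under the KO label, 3422 tested genes rose and 3695 fell, or 4466 and 2570 when libraries were scaled by their totals alone.

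In the libraries labelled KO, 12 of the 30 tested Hox genes rose, 1 fell (Hoxd9) and 17 did not pass the test, while 8 were too low to judge. The 12 that rose were Hoxa2, Hoxa3, Hoxa4, Hoxa5, Hoxa7, Hoxb1, Hoxb2, Hoxb3, Hoxb4, Hoxb9, Hoxc13 and Hoxd13. They make up 40.0% of the tested members, against 19.2% of all tested genes called higher, and the 1 that fell is 3.33%, against 20.8% called lower. The median log2 fold change of the tested Hox genes was 0.48, against -0.01 over all tested genes. Of the tested members, 7 (23.3%) rose by 2-fold or more, against 5.22% of all tested genes. All 3 KO-labelled libraries lay above all 3 expressing libraries for 13 tested members (43.3%, against 26.4% of all tested genes) and below them for 1 (3.33%, against 27.1%). Calls are at an adjusted p under 0.05 in edgeR's quasi-likelihood test over the 17778 genes, and a fold change is log2 of KO over expressing, with its standard error (SE) and 95% interval.

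**Figure D1:**
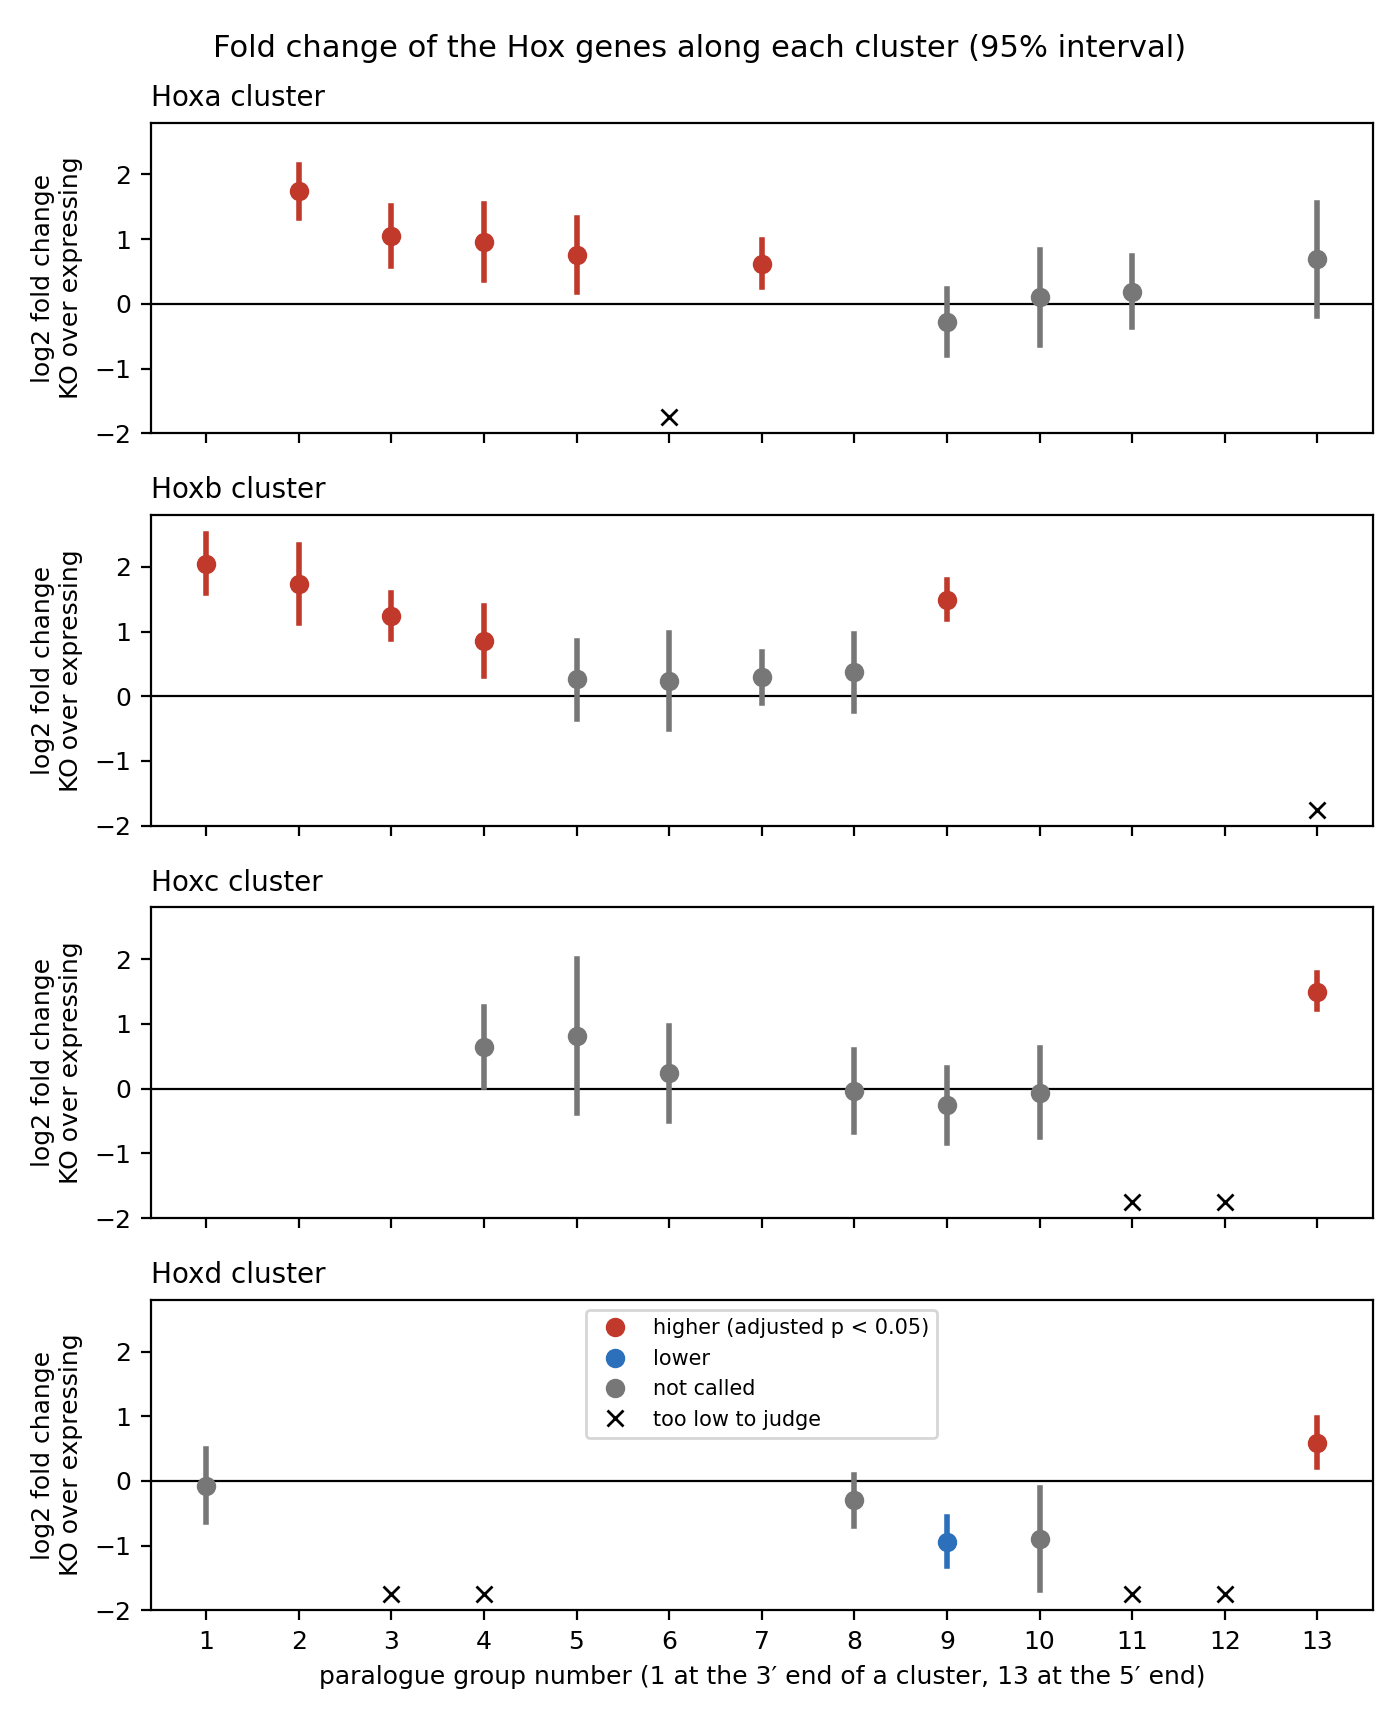
Log2 fold change of each tested Hox gene, KO over expressing (vertical axis), against its paralogue group number (horizontal axis), one panel per cluster; points are fitted values, bars are 95% intervals (n = 3 libraries per group), and crosses mark the 8 members too low to judge, drawn at an arbitrary height. The points of Hoxa2 to Hoxa4 and Hoxb1 to Hoxb4 lie between 0.86 and 2.04, Hoxb9, Hoxc13 and Hoxd13 stand above 0 at the other end of their clusters, and Hoxd9 lies at -0.94.

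In Hoxa and Hoxb the fold changes were larger near the 3′ end than in the middle of the cluster. Hoxa2, Hoxa3 and Hoxa4 all rose (median log2 fold change 1.05), as did Hoxb1, Hoxb2, Hoxb3 and Hoxb4 (1.48). Over the 4 clusters, 9 of the genes of groups 1 to 4 given here were tested, of which 7 rose and 0 fell, with a median of 1.05. Groups 5 to 8 had 10 tested genes, of which 2 rose, Hoxa5 and Hoxa7, and 0 fell (median 0.28). Groups 9 to 13 had 11 tested genes, of which 3 rose and 1 fell (median 0.10). By cluster, 5 of 9 tested genes rose in Hoxa, 5 of 9 in Hoxb, 1 of 7 in Hoxc and 1 of 5 in Hoxd, where Hoxd9 fell. In Hoxa, Hoxb and Hoxc 0 fell, also by DESeq2 and at an unadjusted p under 0.05. The differences between clusters and between paralogue groups were not themselves tested. The plot of fold change by position shows these values gene by gene.

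The Hox genes were expressed at low levels in both groups. Levels between genes are compared as CPM per kb, the scaled counts of a library (CPM) per kilobase of exon. Over both groups the tested Hox genes had a median of 0.492 CPM per kb, against 3.16 for all tested genes, and only 1 of them, Hoxb9, lay above that 3.16. Hoxb9 reached 7.23 CPM per kb in the libraries labelled KO and 2.56 in the expressing libraries. Next in the libraries labelled KO came Hoxc13 at 2.28, Hoxa2 at 2.14, Hoxb1 at 2.10 and Hoxd13 at 1.98 CPM per kb, a stretch of the order in which the neighbours lie close together. In the expressing libraries the same genes had 0.801, 0.634, 0.515 and 1.31 CPM per kb. In bulk libraries, more cells with a Hox transcript and more transcript per cell cannot be told apart.

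**Figure D2:**
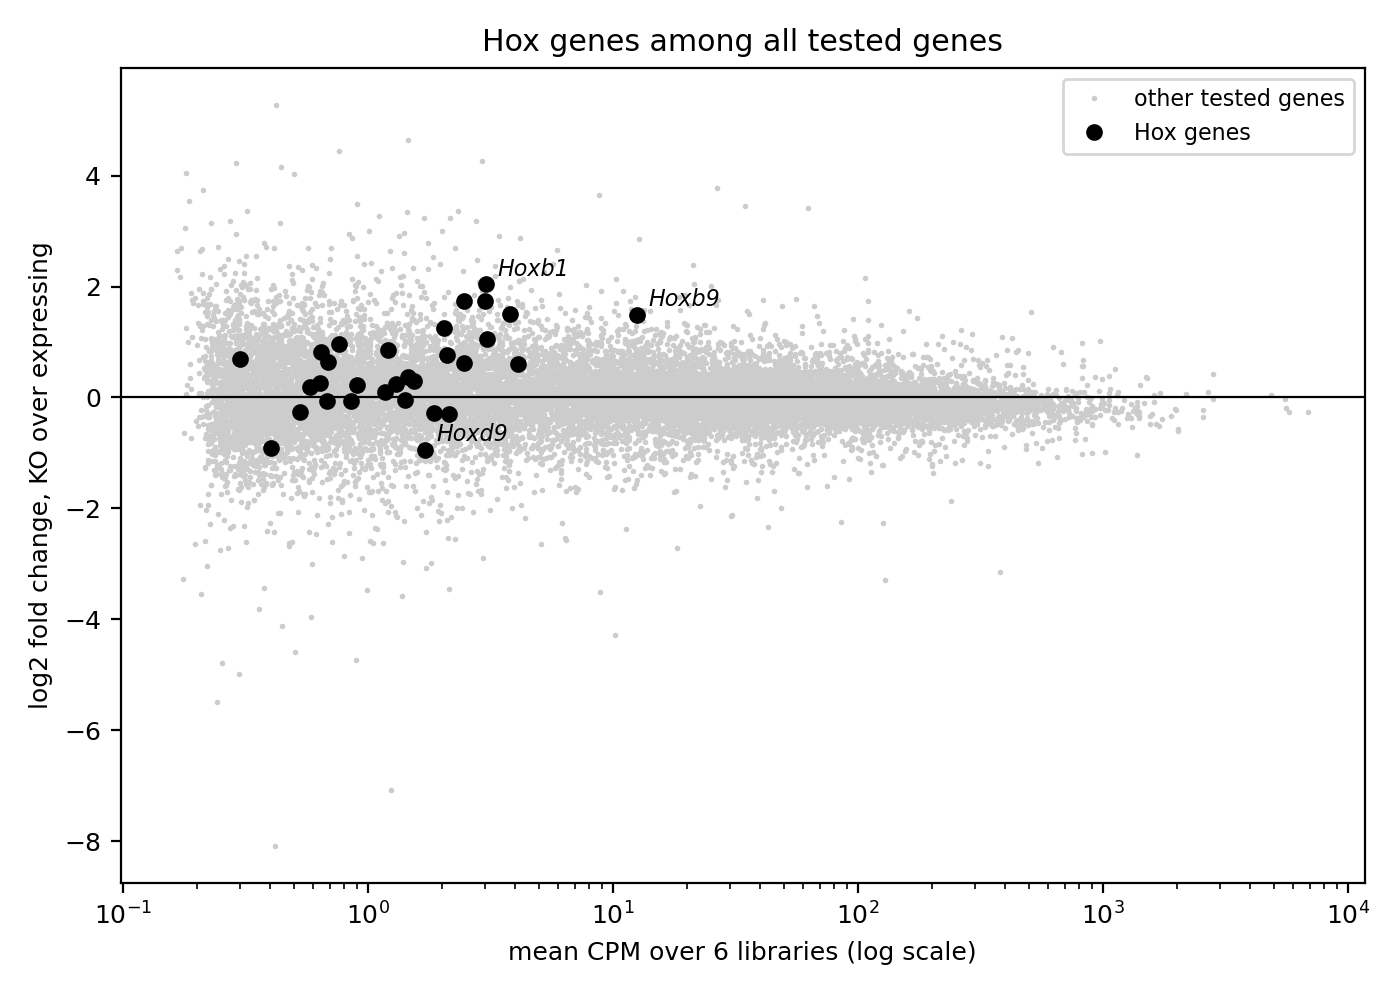
Log2 fold change, KO over expressing (vertical axis), against mean CPM of the 6 libraries on a log scale (horizontal axis), for the 30 tested Hox genes (black) and tested genes outside the clusters' Hox genes (grey). Hoxb9 is the best expressed of those in black, Hoxb1 has the highest fold change among them (2.04), and most of the others lie at the low end of the range of expression.

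Hoxa lies on chromosome 6 (mm10, minus strand). Values below are CPM, counts scaled by library size, in replicates 1, 2 and 3 of each group. Hoxa2, which sets the identity of the second pharyngeal arch, had 3.55, 4.61 and 3.22 CPM in KO-labelled libraries, against 1.06, 1.22 and 1.09 CPM in expressing libraries. Every KO-labelled library was far above every expressing library, with a log2 fold change of 1.74 (SE 0.183, 95% interval 1.33 to 2.15).

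Hoxa3, needed for thymus and parathyroid formation, had 3.76, 5.26 and 3.45 CPM in KO-labelled libraries and 1.60, 2.45 and 1.89 CPM in expressing libraries, a log2 fold change of 1.05 (SE 0.209, interval 0.58 to 1.52). Hoxa4, a gene of the neck region, had 0.975, 1.09 and 0.988 CPM in KO-labelled libraries and 0.320, 0.590 and 0.630 CPM in expressing libraries (0.96, SE 0.262, interval 0.37 to 1.55). Neither gene's groups overlapped, and expressing replicate 1 was lowest for both. Hoxa5, which patterns the neck vertebrae and the lung, had 2.06, 3.55 and 2.33 CPM in KO-labelled libraries and 1.09, 1.66 and 1.92 CPM in expressing libraries (0.76, SE 0.255, interval 0.19 to 1.33; adjusted p = 0.0395, edgeR). Hoxa7 had 2.72, 3.31 and 2.95 CPM in KO-labelled libraries and 2.21, 2.04 and 1.61 CPM in expressing libraries (0.62, SE 0.160, interval 0.26 to 0.98). Both rose, with a gap between the nearest libraries of the 2 groups that was smaller than the range within either.

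The 5′ genes of Hoxa, from Hoxa9 to Hoxa13, did not pass the test. Hoxa9, a posterior gene also active in blood stem cells, had 1.26, 2.33 and 1.43 CPM in KO-labelled libraries and 1.89, 2.15 and 2.08 CPM in expressing libraries (-0.28, SE 0.228, interval -0.79 to 0.23). Hoxa10, which acts in the uterus and lumbar spine, had 0.889, 1.80 and 0.911 CPM in KO-labelled libraries and 1.54, 0.907 and 0.985 CPM in expressing libraries (0.10, SE 0.324, interval -0.63 to 0.83). In both genes KO replicate 2 was the highest of the 6 libraries, and the other 2 KO-labelled libraries were near or below the lowest expressing library. Hoxa11, a gene of the forearm and kidney, had 0.688, 0.599 and 0.581 CPM in KO-labelled libraries and 0.481, 0.635 and 0.493 CPM in expressing libraries (0.19, SE 0.246, interval -0.36 to 0.74). Hoxa13, the hand and foot gene, had 0.373, 0.444 and 0.291 CPM in KO-labelled libraries and 0.352, 0.181 and 0.164 CPM in expressing libraries (0.69, SE 0.388, interval -0.18 to 1.56). The groups of both overlapped. A 2-fold change in either direction lay outside the intervals of Hoxa9, Hoxa10 and Hoxa11. In Hoxa13 a 2-fold rise, but not a 2-fold fall, lay inside the interval. Hoxa6, with 9 counts summed over the KO-labelled libraries and 8 over the expressing libraries, was too low to judge.

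Hoxb lies on chromosome 11, 96194316 to 96368256 (plus strand), with Hoxb1 at its 3′ end, at 96365752 to 96368256. Hoxb1, the marker of the fourth segment of the hindbrain, had 4.47, 5.94 and 4.21 CPM in KO-labelled libraries, against 1.51, 1.07 and 1.01 CPM in expressing libraries. Its log2 fold change of 2.04 (SE 0.202, interval 1.59 to 2.50; adjusted p = 6.9e-05, edgeR) was the highest among the tested members. Hoxb2, a hindbrain gene, had 3.61, 6.68 and 3.57 CPM in KO-labelled libraries and 1.41, 1.27 and 1.51 CPM in expressing libraries (1.73, SE 0.267, interval 1.13 to 2.33). Every KO-labelled library exceeded every expressing library for both genes, and KO replicate 2 stood highest. Hoxb3 had 2.78, 3.15 and 2.71 CPM in KO-labelled libraries and 1.09, 1.18 and 1.37 CPM in expressing libraries (1.24, SE 0.157, interval 0.89 to 1.60). Hoxb4, known for expanding blood stem cells when overexpressed, had 1.20, 2.00 and 1.45 CPM in KO-labelled libraries and 0.865, 0.748 and 0.985 CPM in expressing libraries (0.86, SE 0.237, interval 0.32 to 1.39). Neither gene's groups overlapped, and those of Hoxb4 came closest.

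The promoters of Hoxb1 and Hoxa2, the members with the highest fold changes, are shown with the match to TGATNNAT, a sequence known to be bound by Hox proteins together with their PBX partners, in capitals (in Hoxa2 on the opposite strand). They run 5′ to 3′ along the gene, from 250 bases before the RefSeq start to 50 bases after it (GRCm38.p6), at chr11:96365508-96365807 on the plus strand for Hoxb1 and chr6:52164782-52165081 on the minus strand for Hoxa2. 
Hoxb1: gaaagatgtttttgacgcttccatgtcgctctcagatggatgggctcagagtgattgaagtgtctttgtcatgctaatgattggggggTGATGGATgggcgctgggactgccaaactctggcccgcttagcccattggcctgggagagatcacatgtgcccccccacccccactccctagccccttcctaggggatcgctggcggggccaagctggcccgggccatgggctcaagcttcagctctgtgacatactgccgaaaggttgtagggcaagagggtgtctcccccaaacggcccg
Hoxa2: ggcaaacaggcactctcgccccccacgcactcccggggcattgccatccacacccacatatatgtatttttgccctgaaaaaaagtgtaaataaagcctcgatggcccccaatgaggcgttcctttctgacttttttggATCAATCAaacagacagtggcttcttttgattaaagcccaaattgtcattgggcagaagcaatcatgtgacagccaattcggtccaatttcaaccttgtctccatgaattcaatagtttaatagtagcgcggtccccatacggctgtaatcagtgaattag
The capitals begin 162 bases before the start of Hoxb1 and 111 bases before that of Hoxa2.

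RefSeq promoter windows of 300 bases were found for 22 Hox genes, 24 windows in all, and searched on both strands. Hoxa4, Hoxb2, Hoxb3, Hoxb9 and Hoxc13, which rose, had no window. TGATNNAT was in 4 of the 24 windows (16.7%), against 8.85% of 32851 windows of all genes. TATAAA, the core of the TATA box that TFIID binds, was in 4 (16.7%, against 13.6%). AGGTCA, a core site of nuclear receptors, was in 7 (29.2%, against 16.3%), and CCAAT in 15 (62.5%, against 37.4%). Besides Hoxb1 and Hoxa2, TGATNNAT was in a window of Hoxb8, which was not called, and of Hoxd11, too low to judge. The windows of Hoxa3, Hoxa5, Hoxa7, Hoxb4 and Hoxd13, which rose, did not hold it. Matches of different motifs can overlap in a few letters and were counted separately, and a match describes the window only.

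The middle of Hoxb did not pass the test. Hoxb5 had 0.487, 0.732 and 0.853 CPM in KO-labelled libraries and 0.577, 0.635 and 0.547 CPM in expressing libraries (0.26, SE 0.268, interval -0.35 to 0.86). Hoxb6 had 0.860, 1.46 and 0.601 CPM in KO-labelled libraries and 0.897, 0.703 and 0.903 CPM in expressing libraries (0.23, SE 0.330, interval -0.51 to 0.97). The groups overlapped for both genes of the trunk region. Hoxb7 had 1.61, 1.80 and 1.67 CPM in KO-labelled libraries and 1.51, 1.50 and 1.15 CPM in expressing libraries (0.29, SE 0.173, interval -0.10 to 0.68; adjusted p = 0.212, edgeR). Its groups did not overlap, but the interval of the fold change included 0. Hoxb8, known for its role in myeloid cells and in grooming behaviour of mice, had 1.23, 2.33 and 1.36 CPM in KO-labelled libraries and 1.06, 1.38 and 1.37 CPM in expressing libraries (0.37, SE 0.263, interval -0.23 to 0.96). The intervals of these 4 genes all excluded a 2-fold change.

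Hoxb9, a gene of the rib cage and the next one 5′ of Hoxb8, at 96271457 to 96276595, had 17.1, 21.4 and 17.3 CPM in KO-labelled libraries, against 7.11, 7.21 and 5.47 CPM in expressing libraries. The groups were far apart, and the log2 fold change was 1.49 (SE 0.134, interval 1.19 to 1.80; adjusted p = 4.1e-05, edgeR). Hoxb9 therefore stood out from its 4 neighbours Hoxb5 to Hoxb8 in level as well as in fold change, a difference that was not tested. Hoxb13, a prostate and tail gene that lies apart from the rest of the cluster, had 11, 7 and 11 counts in KO-labelled libraries and 7, 6 and 7 in expressing libraries and was too low to judge.

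Hoxc lies on chromosome 15, 102921103 to 103036852 (plus strand), and holds no gene of groups 1 to 3. Hoxc13, its most 5′ gene, at 102921103 to 102928814 and known for its role in hair and nails, had 5.48, 5.32 and 6.03 CPM in KO-labelled libraries, against 1.89, 2.11 and 1.92 CPM in expressing libraries. The libraries within each group lay close together, and the log2 fold change was 1.50 (SE 0.124, interval 1.23 to 1.78; adjusted p = 2.5e-05, edgeR). The other 6 tested genes of Hoxc did not pass the test. Hoxc4 had 0.860, 0.998 and 0.640 CPM in KO-labelled libraries and 0.673, 0.499 and 0.438 CPM in expressing libraries (0.64, SE 0.277, interval 0.02 to 1.26; adjusted p = 0.0943, edgeR). Hoxc5 had 0.201, 1.44 and 0.795 CPM in KO-labelled libraries and 0.513, 0.454 and 0.465 CPM in expressing libraries (0.81, SE 0.527, interval -0.37 to 2.00). The spread of Hoxc5 lay in the KO-labelled libraries, where its counts were 7, 65 and 41.

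Hoxc6 had 0.889, 2.17 and 1.16 CPM in KO-labelled libraries and 1.03, 1.07 and 1.53 CPM in expressing libraries (0.24, SE 0.326, interval -0.50 to 0.97). Hoxc8, a gene of the thorax, had 0.975, 2.02 and 1.22 CPM in KO-labelled libraries and 1.25, 1.81 and 1.26 CPM in expressing libraries (-0.04, SE 0.282, interval -0.67 to 0.59). For both, KO replicate 2 was the highest of the 6 libraries and the rest were mixed. Hoxc9, which marks motor neurons of the thoracic cord, had 0.545, 0.444 and 0.465 CPM in KO-labelled libraries and 0.513, 0.680 and 0.520 CPM in expressing libraries (-0.26, SE 0.257, interval -0.84 to 0.32). Hoxc10, which marks those of the lumbar cord, had 0.803, 0.577 and 0.620 CPM in KO-labelled libraries and 0.641, 0.476 and 0.958 CPM in expressing libraries (-0.06, SE 0.303, interval -0.74 to 0.62). A 2-fold change lay outside all 4 of these intervals, but not those of Hoxc4 and Hoxc5. Too low to judge were Hoxc11, with 3, 11 and 10 counts in KO-labelled libraries and 5, 9 and 3 in expressing libraries, and Hoxc12, with 8, 9 and 15 against 2, 8 and 2.

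Hoxd lies on chromosome 2, 74668310 to 74765142 (plus strand). Hoxd13, the limb and digit gene at its 5′ end (74668310 to 74671599), had 4.90, 5.08 and 4.77 CPM in KO-labelled libraries, against 2.79, 2.79 and 4.19 CPM in expressing libraries. The KO-labelled libraries were tightly grouped above all expressing libraries, of which replicate 3 came close (log2 fold change 0.59, SE 0.165, interval 0.22 to 0.97; adjusted p = 0.0179, edgeR). Hoxd9, a gene of the forelimb and lumbar region at 74697727 to 74700208, had 1.09, 1.24 and 1.18 CPM in KO-labelled libraries, against 2.05, 2.61 and 2.08 CPM in expressing libraries. Every KO-labelled library was below every expressing library, and the log2 fold change was -0.94 (SE 0.170, interval -1.32 to -0.56; adjusted p = 0.00204, edgeR). Its 5′ neighbour Hoxd10 had 0.258, 0.377 and 0.213 CPM in KO-labelled libraries and 0.352, 0.658 and 0.547 CPM in expressing libraries (-0.90, SE 0.351, interval -1.69 to -0.11; adjusted p = 0.0665, edgeR). Its 3′ neighbour Hoxd8 had 1.89, 1.75 and 2.17 CPM in KO-labelled libraries and 2.08, 2.86 and 2.16 CPM in expressing libraries (-0.30, SE 0.174, interval -0.69 to 0.09). Neither neighbour passed the test, and the groups of both overlapped.

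Hoxd1, the group 1 gene of this cluster and a gene of pain-sensing neurons in mice, had 0.803, 0.732 and 0.969 CPM in KO-labelled libraries, against 0.609, 0.930 and 1.07 CPM in expressing libraries. Its log2 fold change was -0.07 (SE 0.253, interval -0.63 to 0.50), so that the interval lay below that of Hoxb1. The remaining Hoxd genes were too low to judge. Hoxd3 had 8 counts summed over the KO-labelled libraries and 9 over the expressing libraries, Hoxd4 18 and 20, and Hoxd12 16 and 13. Hoxd11 had 13, 8 and 8 counts in KO-labelled libraries and 3, 7 and 12 in expressing libraries. A count of 3 corresponds to between 0.0596 and 0.0961 CPM in these libraries, counting error only. In an edgeR fit without the filter, the lowest adjusted p of the 8 low genes was that of Hoxc12 (log2 fold change 1.18, adjusted p = 0.162), whose KO-labelled libraries all lay above its expressing libraries as CPM.

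The promoters of Hoxd13 and Hoxd9, which differed in opposite directions within 1 cluster, are shown on the same window and build, with TATAAA in capitals where present. Hoxd13 is at chr2:74667975-74668274 and Hoxd9 at chr2:74697513-74697812, both on the plus strand.
Hoxd13: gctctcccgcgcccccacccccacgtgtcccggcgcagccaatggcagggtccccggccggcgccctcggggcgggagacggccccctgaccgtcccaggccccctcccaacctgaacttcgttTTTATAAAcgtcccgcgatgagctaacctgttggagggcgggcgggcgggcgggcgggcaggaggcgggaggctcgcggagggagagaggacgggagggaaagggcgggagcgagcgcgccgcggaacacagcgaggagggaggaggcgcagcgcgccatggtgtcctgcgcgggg
Hoxd9: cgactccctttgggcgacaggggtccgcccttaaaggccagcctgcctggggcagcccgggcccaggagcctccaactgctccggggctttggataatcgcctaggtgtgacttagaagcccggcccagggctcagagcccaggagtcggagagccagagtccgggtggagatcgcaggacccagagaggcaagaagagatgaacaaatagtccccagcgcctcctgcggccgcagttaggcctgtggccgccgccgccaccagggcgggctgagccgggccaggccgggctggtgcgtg
The Hoxd13 window holds 2 overlapping matches, 1 on each strand, within the capitals. These letters are not in the Hoxd9 window. TATAAA was also in windows of Hoxa10 and Hoxb8, which were not called, and of Hoxd4, too low to judge. The windows of Hoxa2, Hoxa3, Hoxa5, Hoxa7, Hoxb1 and Hoxb4, which rose, did not hold it. A link between the motif and the fold change was not tested.

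**Figure D3:**
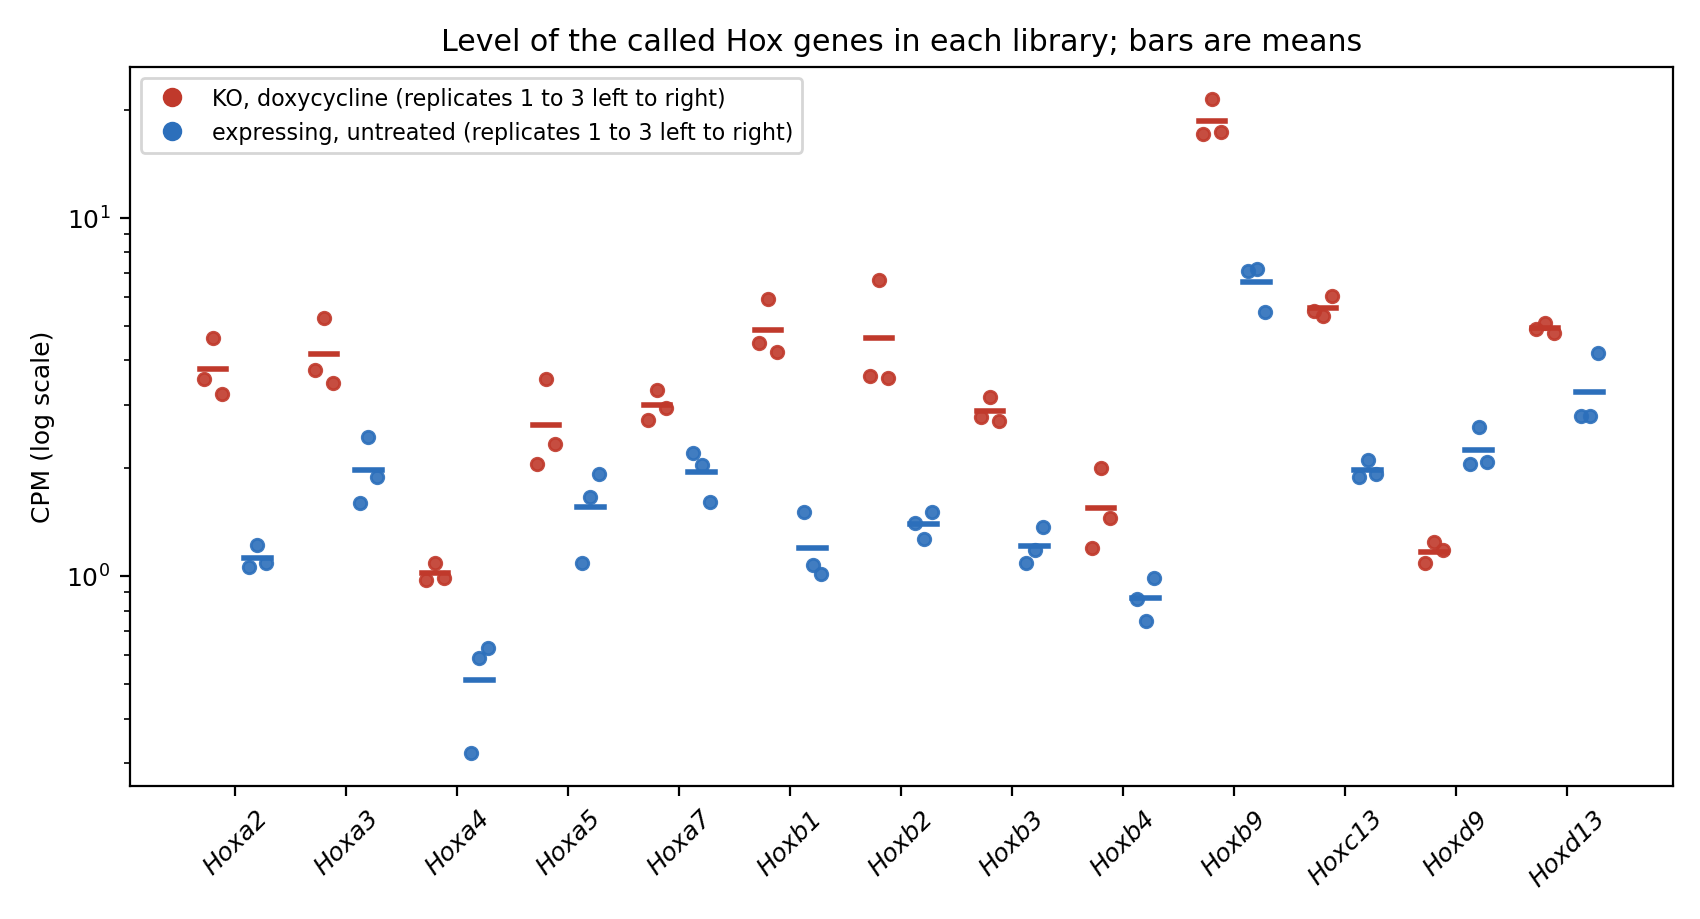
CPM on a log scale (vertical axis) of the 13 called Hox genes (horizontal axis) in each library, KO-labelled in red at the left and expressing in blue at the right of each gene; points are libraries and bars are means of 3. Hoxd9 is the only gene of the 13 with its KO-labelled libraries (1.09 to 1.24 CPM) below its expressing libraries (2.05 to 2.61 CPM).

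Summed over the Hox genes given here, Hoxa had 16.4, 23.1 and 16.2 CPM in KO-labelled libraries and 10.8, 11.9 and 10.9 CPM in expressing libraries. For Hoxb the sums were 33.7, 45.6 and 34.0 CPM in KO-labelled libraries and 16.2, 15.8 and 14.5 CPM in expressing libraries. Hoxc gave 10.1, 13.4 and 11.4 CPM in KO-labelled libraries and 6.73, 7.48 and 7.23 CPM in expressing libraries. In these 3 clusters the groups did not overlap. In the Hoxc sum, Hoxc13 held 5.48, 5.32 and 6.03 CPM in KO-labelled libraries and 1.89, 2.11 and 1.92 CPM in expressing libraries. The groups of the other 6 tested Hoxc genes overlapped, each taken alone. Hoxd gave 9.75, 9.69 and 9.69 CPM in KO-labelled libraries and 8.27, 10.4 and 10.8 CPM in expressing libraries, and there the groups overlapped, with Hoxd13 higher and Hoxd9 lower within the sum.

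KO replicate 2 was the highest of the 3 KO-labelled libraries for 23 of the 30 tested Hox genes (76.7%), against 31.8% of all tested genes. The exceptions were Hoxa11, Hoxb5, Hoxc9, Hoxc10, Hoxc13, Hoxd1 and Hoxd8. The same library also held more transcript of fibroblast and mesenchyme genes, which ES cultures can carry from feeder cells or from differentiated cells. Col1a1, a type I collagen chain, had 40.9, 76.0 and 40.1 CPM in KO-labelled libraries and 58.7, 41.6 and 48.5 CPM in expressing libraries. Col1a2, its partner chain, had 31.6, 68.0 and 31.8 CPM in KO-labelled libraries and 41.7, 35.4 and 41.4 CPM in expressing libraries. Col3a1 had 9.72, 14.8 and 9.90 CPM in KO-labelled libraries and 11.8, 8.64 and 10.3 CPM in expressing libraries. These 3 collagen genes did not pass the test between the groups, while Col5a1 (0.42, SE 0.145), Col5a2 (0.75, SE 0.189) and Fbn1 (0.38, SE 0.127) of the same marker list rose. Prrx1, a limb mesenchyme factor, had 5.85, 13.3 and 6.63 CPM in KO-labelled libraries and 3.33, 5.49 and 4.57 CPM in expressing libraries and also rose (0.93, SE 0.305). Prrx1, Col5a1, Col5a2 and Fbn1 are named here after their values were seen. KO replicate 2 was the highest KO-labelled library for 21 of the 23 tested markers of that list, the exceptions being Dcn and Twist1.

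Without KO replicate 2, 7 Hox genes rose in place of 12 and 2 fell in place of 1, and the median log2 fold change of the tested members was 0.24 in place of 0.48, while that of groups 1 to 4 was 0.91 in place of 1.05. Over all genes tested without it, 2541 (14.1%) were higher in place of 3422 and 2647 (14.7%) lower in place of 3695. Without KO replicate 1 or 3, 14.6% and 14.3% of all tested genes were higher, with 12 and 11 Hox genes. The 7 that rose without it were Hoxa2, Hoxa3, Hoxb1, Hoxb2, Hoxb3, Hoxb9 and Hoxc13. The adjusted p (edgeR) of 4 others then lay just above the threshold, with log2 fold changes of 0.91 in place of 0.96 for Hoxa4 (0.0584), 0.54 in place of 0.62 for Hoxa7 (0.0535), 0.64 in place of 0.86 for Hoxb4 (0.0697) and 0.57 in place of 0.59 for Hoxd13 (0.0591). Hoxa5 missed it by more (0.153), with 0.49 in place of 0.76. Hoxa9 was then lower (adjusted p = 0.0407, edgeR). The adjusted p of some of these genes also lay above the threshold when another library was left out, with fewer libraries in the test. Hoxa5 then had a log2 fold change of 0.80 without expressing replicate 2 (0.0654) and 0.86 without KO replicate 3 (0.0611). Hoxa7 had 0.51 without expressing replicate 3 (0.0526), Hoxb4 0.75 without expressing replicate 2 (0.0561), and Hoxd13 0.48 without expressing replicate 2 (0.0567) and 0.60 without KO replicate 1 (0.0517). Without expressing replicate 1, Hoxc4 (0.0341) was higher and Hoxd10 (0.0226) lower, and without KO replicate 1 Hoxc5 (0.0236) was higher. With KO replicate 2 and expressing replicate 1 left out together, a choice made after seeing the data, 10 Hox genes rose and 3 fell. These were 32.3% and 9.68% of the members then tested, against 25.0% and 23.8% of all genes then tested.

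**Figure D4:**
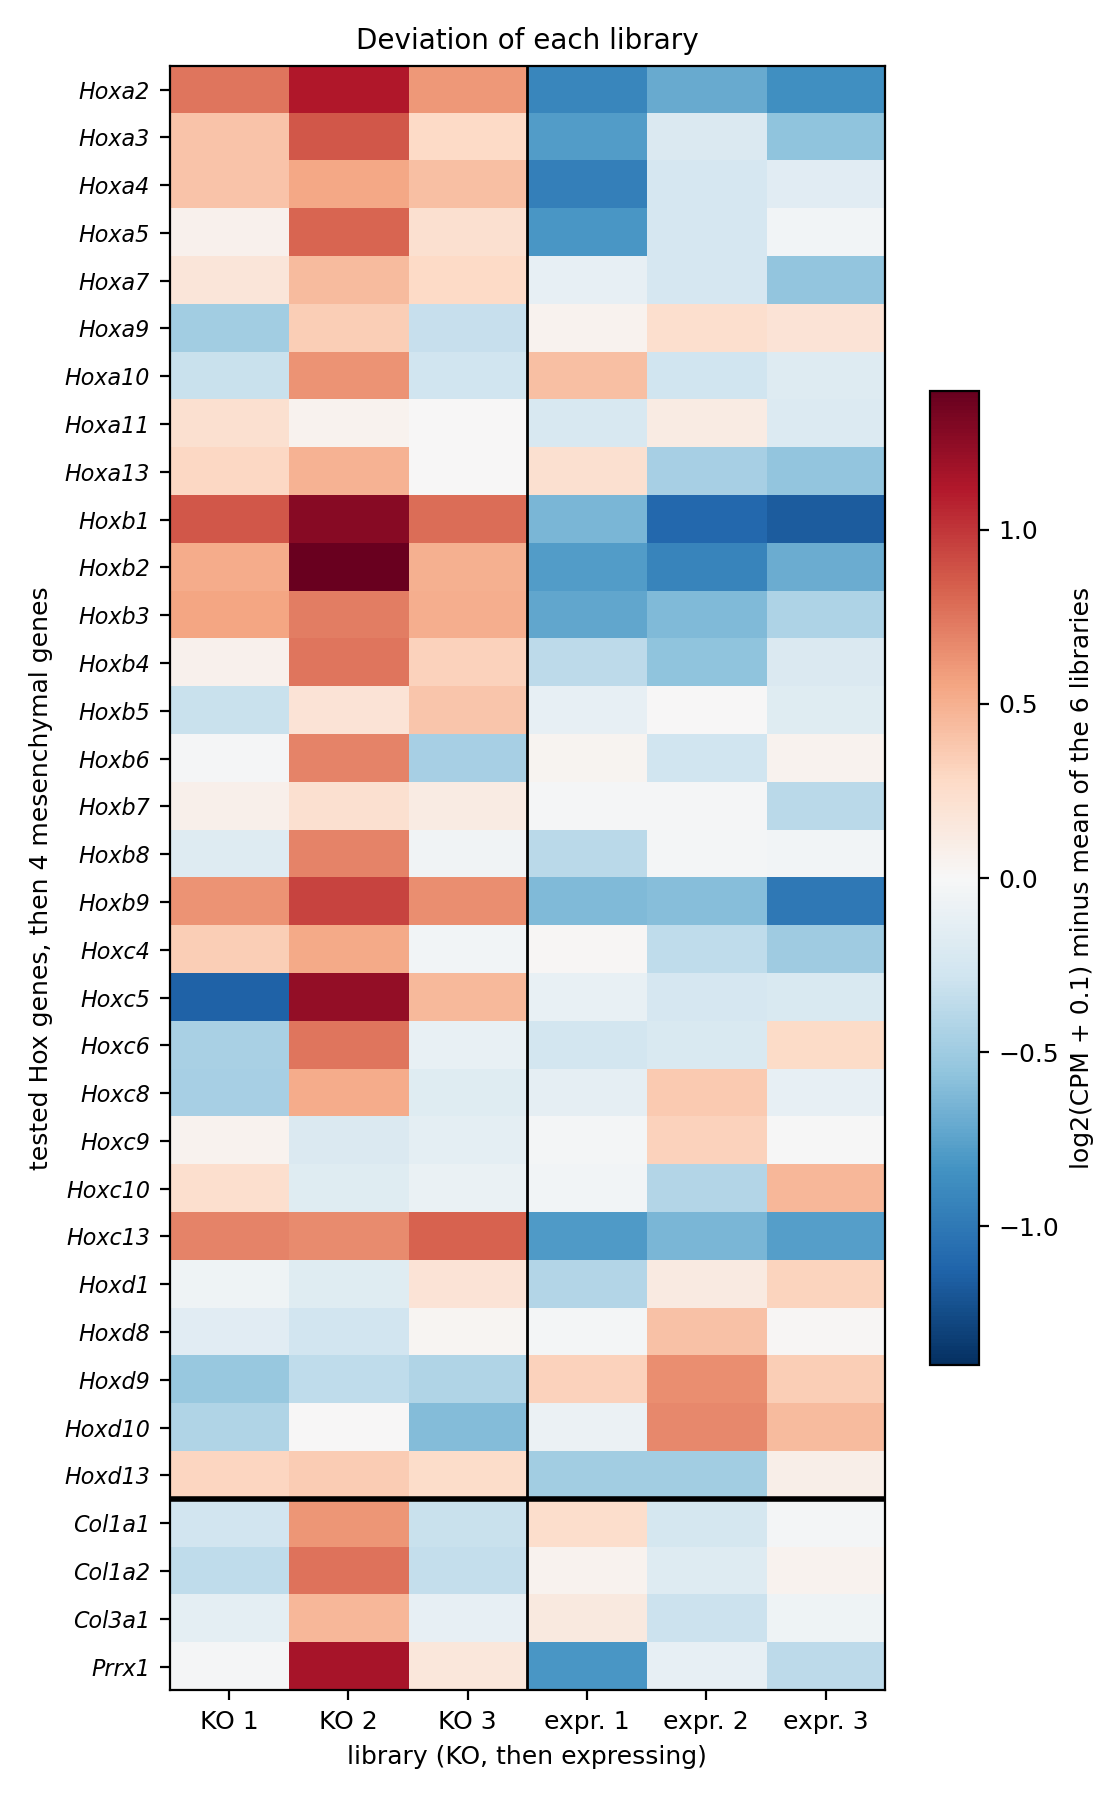
Each library's log2(CPM + 0.1) minus the mean of the 6 libraries (colour, red above and blue below), for the 30 tested Hox genes in cluster order and, under the line, 4 mesenchymal genes; KO-labelled libraries are the left columns and expressing libraries the right ones. KO replicate 2 is the reddest of all columns for 21 of the Hox genes and for all 4 mesenchymal genes, while Hoxc13 is about as high in the other 2 KO-labelled libraries.

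Markers of other cell types differed between the groups as well, where 19.2% of all tested genes rose and 20.8% fell. Of 24 fibroblast markers, 23 were tested, 9 rose and 1 fell, their summed level was 1470 to 1950 CPM in KO-labelled libraries and 888 to 994 CPM in expressing libraries, and none was at 0 in all libraries. Most of that sum is Sparc and Vim, and the other 22 markers summed to 436, 763 and 422 CPM in KO-labelled libraries and 431, 393 and 412 CPM in expressing libraries, so that KO replicate 2 alone stood apart. The count higher was 5 without expressing replicate 1 or without expressing replicate 2, and the count lower was 4 without KO replicate 2. Sparc (1.09, SE 0.0634), Vim (1.06, SE 0.0846) and Dcn (2.10, SE 0.238) rose and Thy1 (-0.89, SE 0.169) fell, and Sparc is also a marker of parietal endoderm. Of 20 primitive endoderm markers, all tested, 18 rose and 1 fell, with 2590 to 2620 CPM in KO-labelled libraries and 1430 to 1660 CPM in expressing libraries. Cubn, an endocytic receptor, rose by 3.41 on the log2 scale (SE 0.0755), and Pdgfra, Lama1 and Srgn 2.86, 2.15 and 3.65. Of 12 core pluripotency genes, 11 fell and 0 rose (0 also by DESeq2 and at an unadjusted p under 0.05), with 1200 to 1220 CPM in KO-labelled libraries and 2180 to 2360 CPM in expressing libraries. Zfp42 (-1.37, SE 0.0584), Prdm14 (-2.58, SE 0.120), Nr0b1 (-1.53, SE 0.0842) and Nanog (-1.24, SE 0.0735) were among them. The part of these cell types in the Hox values was not tested.

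Genes that share exon bases with a Hox gene limit some of the values, since the strand setting of the counting is not given. Of the tested members, 18 share no exon base with another gene, and of these 6 rose (33.3%) and 1 fell (5.56%). Of all tested genes, 19.2% rose and 20.8% fell. The 18 members include Hoxa5, Hoxb1, Hoxb4, Hoxb9, Hoxc13 and Hoxd13, which rose, and Hoxd9, which fell. Of the 12 tested members that share bases, 6 rose. Hoxb3 shares 2250 of its 4251 exon bases, and Hoxb2 953 of its 3488, with the antisense gene Hoxb3os. Hoxa3 shares 1529 of its 6014 with genes on the other strand. Among the genes too low to judge, Hoxd3 shares 2613 of its 4191 exon bases with genes on the same strand. Hoxd4 shares 1542 of its 2948 in the same way. Reads there may not have been counted for either gene, whatever the strand setting.

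Noncoding genes in the clusters or within 20 kb of them numbered 49, of which 22 had no count, 11 were tested, 8 rose and 0 fell (0 also by DESeq2 and at an unadjusted p under 0.05). Their median log2 fold change was 1.25. Of all tested genes, 19.2% rose and 20.8% fell. Hoxb3os had 2.38, 2.99 and 2.54 CPM in KO-labelled libraries and 0.352, 0.907 and 0.630 CPM in expressing libraries (2.01, SE 0.262). Hotairm1, a transcript from the 3′ end of Hoxa known in myeloid cells, had 1.72, 1.84 and 1.84 CPM in KO-labelled libraries and 0.545, 0.816 and 0.876 CPM in expressing libraries (1.25, SE 0.203). Both rose with their groups well apart, but their reads and those of the overlapping Hox genes cannot be told apart without strand. Hoxaas2 (1.31, SE 0.242) also rose. Among 19 noncoding transcripts named for the clusters, 16 were in the table, 6 were tested and 4 rose, or 2 under a filter of 1 CPM in 3 libraries. Gm53, a long noncoding RNA between Hoxb13 and Hoxb9 named here after its value was seen, had 28.1, 30.3 and 28.3 CPM in KO-labelled libraries and 8.75, 8.57 and 7.34 CPM in expressing libraries (1.82, SE 0.0915). It shares no exon base with another gene, and its libraries were close together within each group.

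The clusters also hold the microRNA genes of the miR-10 and miR-196 families, which are known to target Hox messages. Their mature sequences (RefSeq, GRCm38.p6) are shown because members of 1 family share a seed, bases 2 to 8, in capitals.
mmu-miR-196a-5p: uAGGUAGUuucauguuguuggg
mmu-miR-196b-5p: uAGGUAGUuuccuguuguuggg
mmu-miR-10a-5p: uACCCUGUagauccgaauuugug
mmu-miR-10b-5p: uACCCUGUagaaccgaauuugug
The Mir196a-1 locus, 5′ of Hoxb9, had 32, 44 and 62 counts in KO-labelled libraries and 14, 11 and 24 in expressing libraries (log2 fold change 1.23, SE 0.323; adjusted p = 0.0142, edgeR). These are reads of polyadenylated RNA over the locus and say nothing of the mature microRNA. The Mir10a, Mir10b, Mir196a-2 and Mir196b loci had no count. All 85 bases of Mir196b are shared with Hoxa9 exons on the same strand, so its lack of counts does not show a lack of reads.

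Most genes beside the clusters did not pass the test, and neither did most of all tested genes, of which 19.2% rose and 20.8% fell. Within 250 kb of a cluster lay 23 other protein-coding genes, of which 18 were tested, 2 rose and 3 fell, with a median log2 fold change of 0.01. On the 3′ side of Hoxa the nearest is Skap2, 143 kb away (0.03, SE 0.0811), and beyond Hoxa13 it is Evx1, an even-skipped homeobox gene 52.6 kb away (-0.21, SE 0.271). Beside Hoxb1 it is Skap1, at 96.3 kb (0.41, SE 0.360), and beside Hoxb13 Ttll6, at 28.9 kb, which rose (0.54). Beside Hoxc4 it is Smug1, a DNA repair gene at 116 kb that fell (-0.64, SE 0.106), and beside Hoxc13 Calcoco1, at 199 kb (0.19, SE 0.0831). Beside Hoxd1 it is Mtx2, at 60.7 kb, with 89.8, 84.9 and 88.2 CPM in KO-labelled libraries and 82.9, 91.4 and 88.9 CPM in expressing libraries. Evx2, 8.75 kb beyond Hoxd13, was too low to judge. The changes of larger size were 5730596B20Rik, inside Hoxa and sharing 292 exon bases with Hoxa3 (1.83, SE 0.390), and Calcoco2, 82.4 kb from Hoxb13 (-3.51, SE 0.130).

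**Figure D5:**
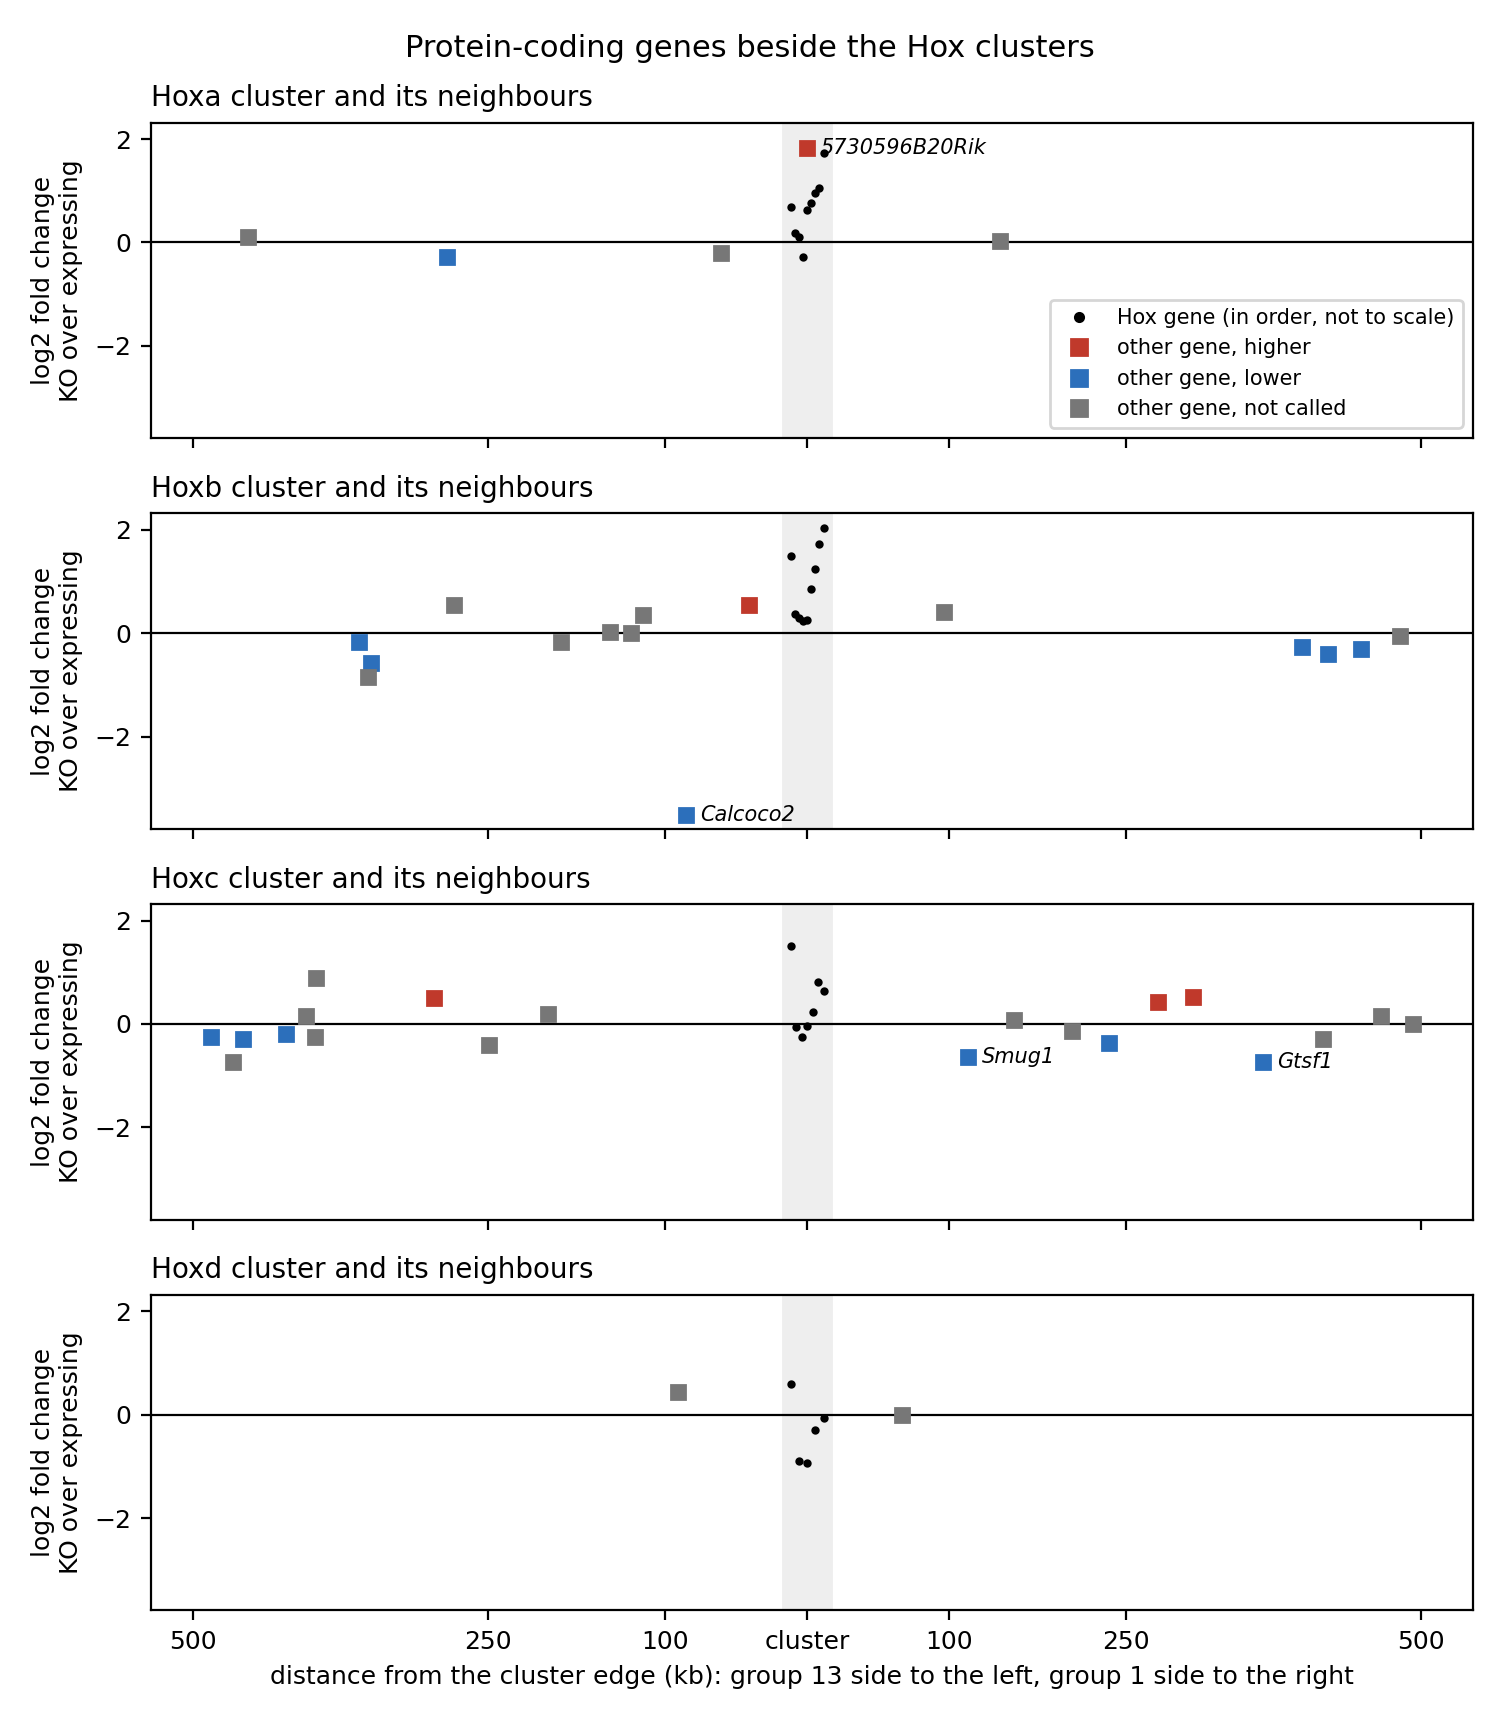
Log2 fold change, KO over expressing (vertical axis), of the tested protein-coding genes up to 500 kb from each cluster edge (squares; horizontal axis, distance in kb, group 13 side to the left), with the tested Hox genes as black dots in gene order inside the grey band, which is not to scale. Most neighbours lie near 0, Calcoco2 lies at -3.51, and Hoxa2 and Hoxb1 lie above the genes that flank their clusters.

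Partners of the Hox proteins were examined from a list of 9 PBX, MEIS and PREP genes, of which 4 rose and 2 fell. Among all tested genes, 19.2% rose and 20.8% fell. Pknox2 had 5.70, 6.43 and 5.27 CPM in KO-labelled libraries and 1.76, 1.68 and 1.56 CPM in expressing libraries (1.80, SE 0.135). Meis2, a cofactor that binds beside PBX, had 17.0, 24.7 and 20.6 CPM in KO-labelled libraries and 9.20, 10.7 and 11.2 CPM in expressing libraries (1.01, SE 0.139). The groups of neither gene overlapped. Pbx2 fell (-0.40, SE 0.0632).

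Upstream regulators known from embryos were mixed, as were all tested genes, of which 19.2% rose and 20.8% fell. Of 8 ParaHox, Cdx and Evx genes, 6 were tested, 2 rose and 1 fell. Cdx4, an activator of posterior Hox genes, had 4.36, 4.99 and 4.92 CPM in KO-labelled libraries and 0.481, 1.04 and 0.958 CPM in expressing libraries (2.49, SE 0.216), while its paralogue Cdx2 had 5.39, 4.90 and 5.39 against 12.3, 10.3 and 9.85 CPM (-1.05, SE 0.114). The 2 Cdx genes thus differed in opposite directions. Gsx1 rose (1.23, SE 0.197). Of 18 tested genes of retinoic acid supply and receptors, 5 rose and 5 fell, and the count lower was 3 with library totals, without KO replicate 1 or without KO replicate 3. Stra6, the retinol uptake receptor, rose by 2.08 on the log2 scale (SE 0.207) and Rdh10, which makes retinal, by 0.73 (SE 0.0863), while Rxrb (-0.51, SE 0.0877) and Crabp1, which binds retinoic acid in the cytoplasm, (-0.67, SE 0.118) fell. Among 9 other tested homeobox and hindbrain genes that respond to retinoic acid, 2 rose, among them Pax3 (1.68, SE 0.239), and 2 fell, Pax6 (-0.56, SE 0.113) and Otx2 (-0.33, SE 0.0745).

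Chromatin regulators of the clusters were mixed or lower, where 19.2% of all tested genes rose and 20.8% fell. Of 32 Polycomb genes, all tested, 6 rose and 11 fell (median -0.09), but with libraries scaled by their totals 9 rose and 7 fell, and without KO replicate 2 or KO replicate 3 the count lower was 7. Jarid2, a subunit of Polycomb repressive complex 2, had 464, 474 and 500 CPM in KO-labelled libraries and 691, 723 and 751 CPM in expressing libraries (-0.59, SE 0.0569). Epop (-0.95, SE 0.107) and Ezh1, a methyltransferase subunit, (-0.60, SE 0.0728) fell, and Pcgf5 rose (0.98, SE 0.109). Of 18 Trithorax and H3K27 demethylase genes, 11 fell and 0 rose (0 also by DESeq2 and at an unadjusted p under 0.05), with a median of -0.24. The count lower was 5 with library totals, 6 without expressing replicate 3 or without KO replicate 1, and 7 without KO replicate 2. Kmt2c (-0.65, SE 0.0636), Hcfc1 (-0.43, SE 0.0638), Wdr5 (-0.24, SE 0.0507) and Kmt2b, a methyltransferase for H3K4, (-0.40, SE 0.0864) were among those that fell.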

How the data were processed

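Per the labels' protocols, libraries came from total RNA through poly(A) selection and a strand-marking (dUTP) kit. The authors deposited raw counts of reads for 55401 gene identifiers. HTSeq 0.6.1p1, STAR 2.5.3a, cutadapt 1.10 and bcl2fastq 2.20.0.422 and the build mm10 are named in the submitters' processing notes. The strand option of the counting was not given in the sources used here, nor was its annotation. Symbols and positions came from GENCODE M21 (55141 identifiers matched).

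The test was edgeR 4.0.16 (in R 4.3.3) on these counts: filterByExpr (minimum count 10, minimum total 15), TMM scaling, glmQLFit (robust) and glmQLFTest, with p-values adjusted over all 17778 tested genes by Benjamini-Hochberg at 0.05. CPM use TMM-scaled sizes. A gene failing the filter was called too low to judge. DESeq2 1.42.0 was an alternative. Scripts were tested on simulated data. Dishes may share a starting culture, so p-values measure the spread between dishes.

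The Hox genes and the lists were chosen with earlier results of these data known. Of the 39 Hox genes chosen by the rule, 1 is not reported here, nor are the values of a few list genes, so counts and sums of Hox genes cover the other 38. From each list, up to 4 called genes with the smallest p are otherwise named, plus the 3 collagens. Beside the clusters, the nearest gene on each side and up to 3 called genes with the largest fold are named.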

Additional observations from a re-analysis of the deposited data

How the results depend on the processing

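Of the 13 called Hox genes, 8 (Hoxa2, Hoxa3, Hoxb1, Hoxb2, Hoxb3, Hoxb9, Hoxc13 and Hoxd9) were called in the same direction under all 15 alternatives run, and 5 lost the call under at least 1; Hoxa4 and Hoxa5 also lost it with KO replicate 2 and expressing replicate 1 left out together (adjusted p = 0.0596 and 0.166, edgeR). No Hox gene that was called changed direction under these alternatives. Of the 17 uncalled genes, 4 passed under some alternative and 7 changed sign. Leaving out 1 library gave 7 to 13 Hox genes higher and 1 to 2 lower, and for the genes within 250 kb 2 to 5 higher and 3 to 6 lower. Of all genes then tested, 14.1% to 26.2% were higher and 14.5% to 24.7% lower, both highest without expressing replicate 1. Hox genes lower numbered 2 with a GC trend removed, with or without the replicate block, Hoxd10 being the second, and 3 with both doubted libraries left out. Hox genes higher numbered 13 without the filter (34.2%, against 11.4% of all genes then tested), Hoxc5 being added. Among genes beside the clusters, the filter of 1 CPM left 1 higher, removal of the GC trend gave 4 higher and 4 lower with or without the block, leaving out both libraries gave 5 and 5, a window of 100 kb gave 2 higher and 1 lower, and 500 kb gave 5 and 13. The causes were not tested. Replicate numbers did not pair the libraries (correlations of same-numbered deviations 0.0236, -0.0342 and 0.0419), and a replicate block gave 12 Hox genes higher and 1 lower. With library totals the median over all genes was 0.08, with 12 Hox genes higher and 1 lower. Depth limits the 8 low genes to large changes, and shared exon bases may also lower the counts of Hoxd3 and Hoxd4. The intervals of 4 uncalled genes, Hoxa13, Hoxc4, Hoxc5 and Hoxd10, reach past a 2-fold change.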

Other observations

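Markers of the tissues in which Hox genes are first switched on gave mixed values, as did all tested genes (19.2% rose, 20.8% fell). Of 13 tested primitive streak and posterior mesoderm markers, 4 rose and 4 fell under the KO label, with 2 lower by DESeq2, without KO replicate 1 or without KO replicate 3. Kdr, a receptor of early blood and vessel mesoderm, had 12.9, 12.7 and 12.0 CPM in KO-labelled libraries and 3.40, 3.15 and 2.65 CPM in expressing libraries, while T, the streak marker Brachyury, had 24.8, 21.7 and 21.2 CPM in KO-labelled libraries and 57.4, 48.2 and 48.4 CPM in expressing libraries. Of 12 tested neural markers, 4 were higher and 5 lower. Sox1, an early neural plate factor, rose by 1.50 on the log2 scale (SE 0.144), and Nefl, a neurofilament chain, fell by 0.73 (SE 0.0680).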
